A study of Mus musculus with 15 samples.

Results

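The 36 genes described here are markers of hepatic stellate cells together with the collagens, matrix proteins, matrix proteases and TGF-beta genes that these cells make or respond to. They were taken by gene symbol from a deposited liver expression table of 18510 rows, and all 36 were found. Liver total RNA of 15 wild-type (WT) mice was sequenced: 5 mice on a control diet form the group Ctrl, 5 fed alcohol form the group Alc, and in the group Alc UA 5 mice had the alcohol diet with UA, an agent whose abbreviation the labels do not expand. Strain, sex, age, diet composition, the dose and duration of alcohol and UA, and the time of day of collection are not stated in any source used here. The authors' values are FPKM (sequenced fragments scaled to the length of the gene and to the size of the library), so that levels of different genes can be set side by side. A gene was tested when it reached 1 FPKM in at least 5 of 15 libraries, which 10959 genes did, among them 31 of the 36.

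Hepatic stellate cells are the vitamin A-storing pericytes of the liver sinusoid. In injured liver they can become myofibroblasts that secrete fibrillar collagen, a change driven in large part by TGF-beta and PDGF signalling and marked by smooth muscle actin. Matrix metalloproteases and their tissue inhibitors (Timps) set how much of the deposited matrix is retained, while several matrix genes, among them Fn1 and Col18a1, are also strongly expressed by hepatocytes.

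The stellate cell genes Lrat, Dcn and Colec11 were measured in every library. Of 19 stellate cell markers outside the 36, Lrat among them, 15 reached the level needed for testing and 4 did not. Lrat, the enzyme that esterifies retinol for storage and a defining marker outside the 36, lay between 1.98 and 5.82 FPKM in the Ctrl group, 1.82 and 4.81 FPKM in the Alc group, and 1.89 and 3.88 FPKM in the Alc UA group. Among the 36, the proteoglycan decorin (Dcn), which binds collagen fibrils and TGF-beta, was measured at 54.6 FPKM or more in every library, and the secreted stellate cell lectin Colec11 at 17.9 FPKM or more. Acta2, the smooth muscle actin of activated stellate cells and of vessel walls, was low in all groups. Since the RNA came from whole liver, fewer stellate cells and less RNA per stellate cell cannot be told apart in any value that follows.

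Summed FPKM lay between 551153 and 668832 per library, and between 10119 and 11471 genes reached 1 FPKM. The limma tests on log2(FPKM + 1) were two-sided and were adjusted over all 10959 genes, and a gene is said to have risen or fallen when its adjusted p was below 0.05. On this scale the median gene shifted by -0.12 between Alc and Ctrl and by -0.16 between Alc UA and Ctrl, and the member values should be read relative to these shifts.

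A pair of libraries stood apart for the 36 genes. Ctrl 3 was the highest of all 15 libraries for 22 of the 36, against 15.2% of all tested genes, and the highest of its own group for 27. Alc UA 2 was the highest of all libraries for 7 of the 36, against 9.5% of all tested genes, and the highest of its group for 31. Over all tested genes the highest library was most often Ctrl 1, for 33.0% of them, but for only 2 of the 36. At the low end, Alc UA 3 was the lowest of all libraries for 12 members and Alc UA 5 for 11. Shares of all tested genes were not computed for the low end or within groups. The median deviation of all tested genes from their means was -0.18 on the log2 scale in Alc UA 5, the lowest of the 15 libraries, and -0.018 in Alc UA 3. The median within-group coefficient of variation of the tested members was 54.8% in Ctrl against 18.2% for all tested genes, and 21.8% against 18.0% when Ctrl 3 was left out. In the Alc UA group it was 42.4% against 15.2%, and 26.6% against 15.02% when Alc UA 2 was left out, while in the Alc group it was 27.0% against 13.96%.

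**Figure D1:**
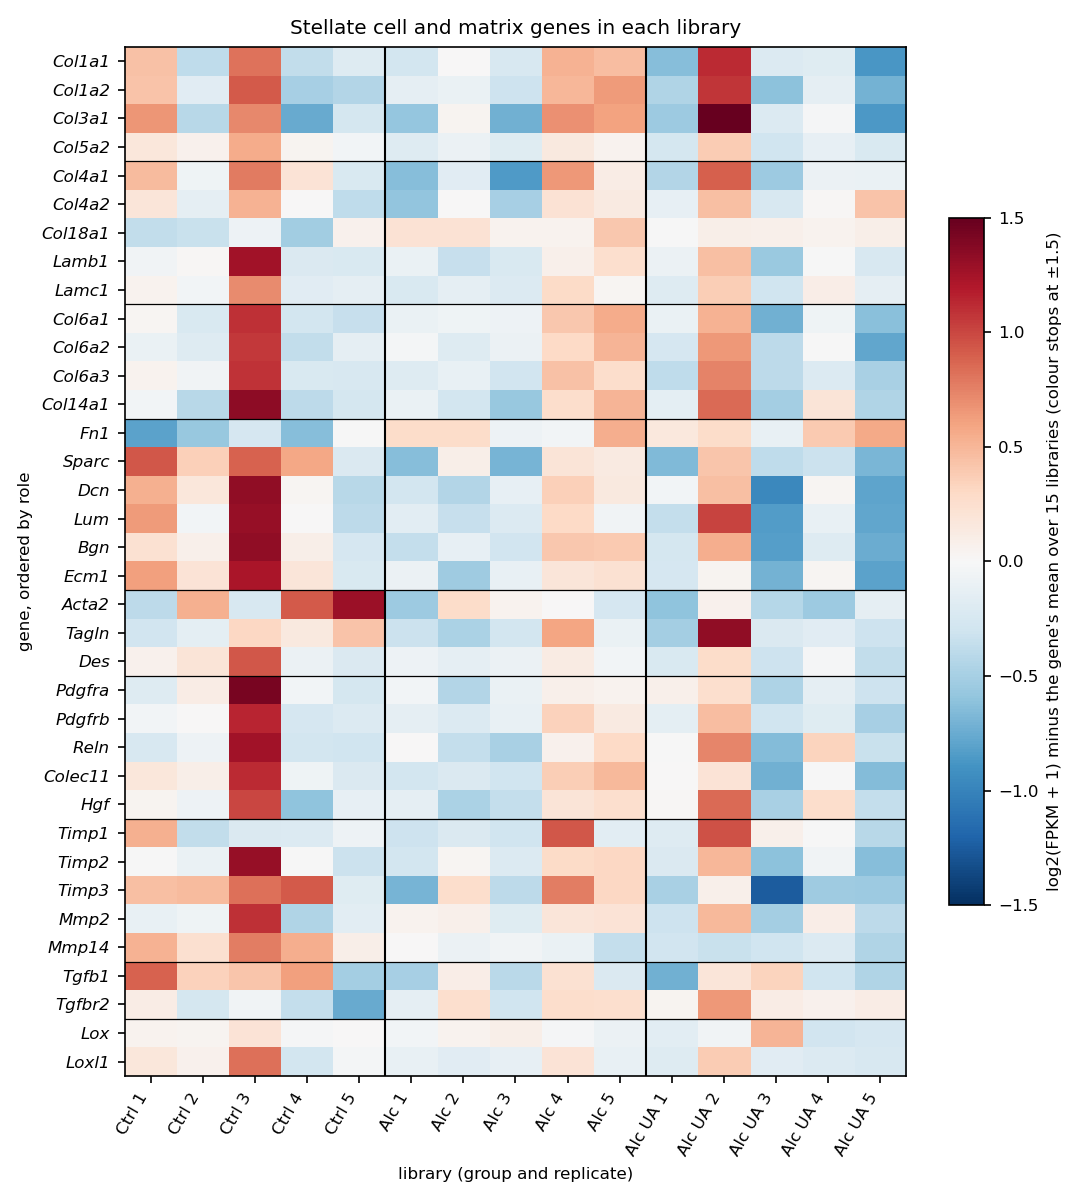
Heat map of the 36 genes (rows, ordered by role) in the 15 libraries (columns, by group), coloured by each gene's log2(FPKM + 1) minus its mean over all libraries, with colours stopping at 1.5 units either way. The columns of Ctrl 3 and Alc UA 2 are raised across most rows, being the highest of their groups for 27 and 31 of the 36 genes.

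Other marker lists moved with these libraries. The summed level of 19 further stellate cell markers was 446 FPKM in Ctrl 3 and between 226 and 276 FPKM in the other Ctrl libraries. The 7 cholangiocyte (bile duct) markers summed to 201 FPKM in Ctrl 3 and to between 26.3 and 113 FPKM in the other Ctrl libraries. Most of this cholangiocyte sum was Spp1, which is also counted among the other glycoproteins below. Spp1 was 184 FPKM in Ctrl 3 and between 21.75 and 106 FPKM in the other Ctrl libraries, so the sum says little about the remaining cholangiocyte markers. In Alc UA 2 the 19 stellate cell markers summed to 271 FPKM, close to the 266 FPKM of Alc UA 4 in the same group. The 5 mesothelial markers summed to 7.09 FPKM in Alc UA 2, the highest of its group, and the 9 hepatocyte markers to 34998 FPKM, the lowest of the 15 libraries. No marker of these lists was at 0 in every library. The part of these cell types in the member values was not tested.

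Of the 31 tested members, 2 rose (Col18a1 and Fn1) and 2 fell (Mmp14 and Sparc) in the alcohol-diet livers relative to control livers, and 27 did not pass. Of all tested genes, 33.3% were called in this comparison, 10.6% as higher and 22.8% as lower. The median member fold change was -0.17 on the log2 scale beside -0.12 for all tested genes, and single libraries moved it. It was 0.051 without Ctrl 3 (all tested genes -0.094), -0.26 without Ctrl 5 (all tested genes -0.16) and -0.097 without Alc 3 (all tested genes -0.13). Between Alc UA and Ctrl, 3 members rose (Col18a1, Fn1 and Tgfbr2) and 4 fell (Ecm1, Mmp14, Sparc and Timp3), against 42.6% of all tested genes called, 10.5% higher and 32.1% lower. The median member fold change in that comparison was -0.25 beside -0.16 for all tested genes. It was -0.010 without Ctrl 3 (all tested genes -0.14) and -0.42 without Alc UA 2 (all tested genes -0.18). Between Alc UA and Alc no member passed, where 1 gene of 10959 did (0.00912%). Both comparisons with Ctrl rest on the same 5 Ctrl libraries, so their values are given side by side and not as support for each other.

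**Figure D2:**
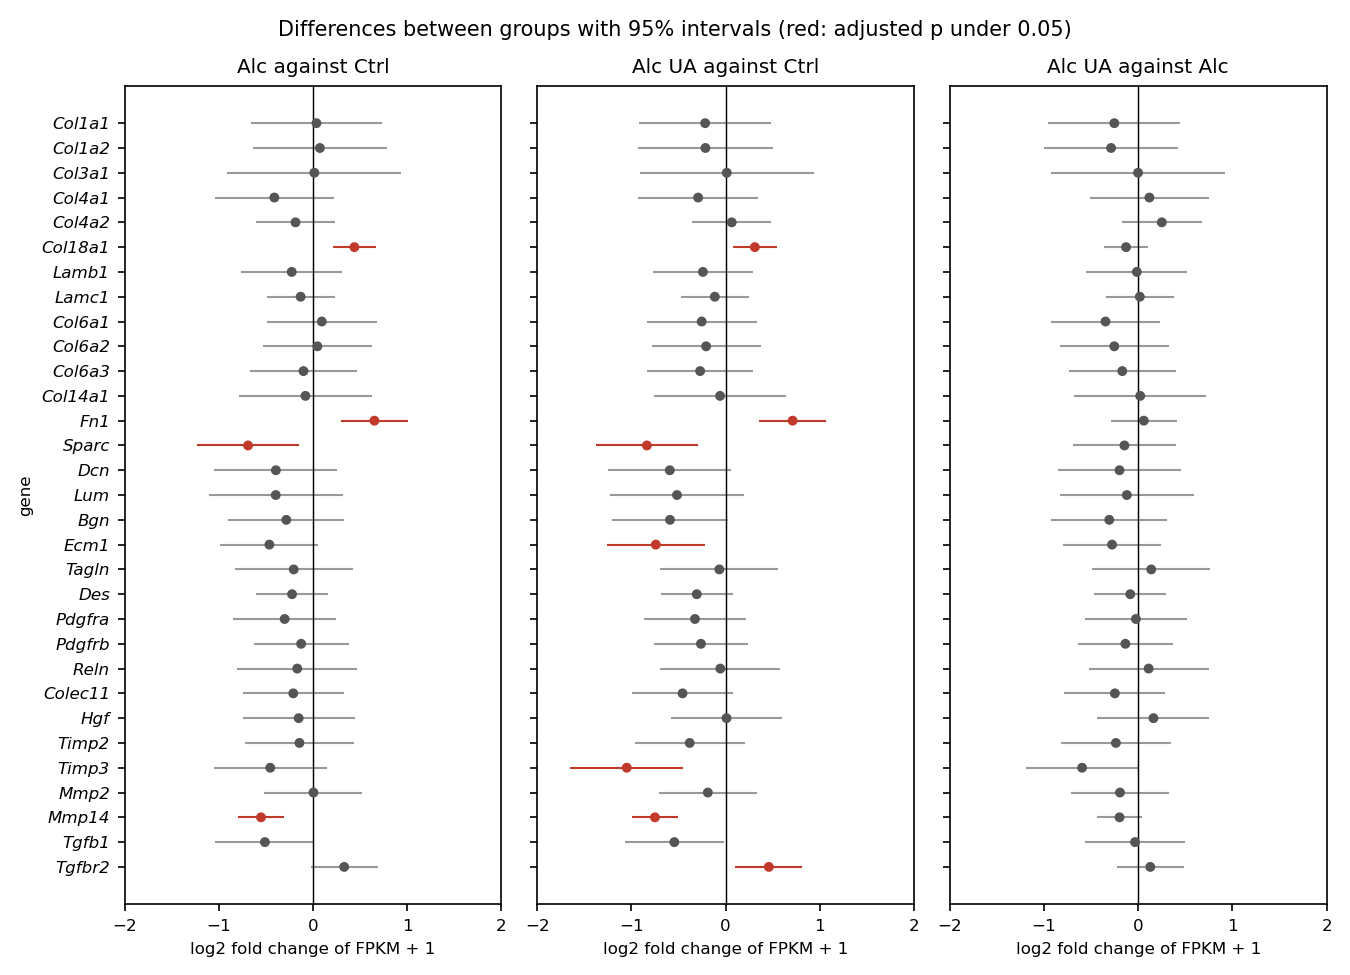
Log2 fold changes of the 31 tested members on the log2(FPKM + 1) scale with 95% intervals from limma, one panel per comparison, with genes called at adjusted p below 0.05 in red. The red points are Col18a1, Fn1, Mmp14 and Sparc in the panel for Alc against Ctrl and these 4 with Ecm1, Timp3 and Tgfbr2 in the panel for Alc UA against Ctrl, while the panel for Alc UA against Alc has none.

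The fibrillar collagens, which form the tensile fibres of scar, did not pass any test. Col1a1, the alpha-1 chain of type I collagen, was 2.57, 1.02, 3.65, 1.05 and 1.3 FPKM in the Ctrl libraries, 1.18, 1.66, 1.23, 2.8 and 2.65 FPKM in the Alc libraries, and 0.7, 4.73, 1.29, 1.32 and 0.44 FPKM in the Alc UA libraries. The groups overlapped throughout, and the highest value was that of Alc UA 2. The difference between Alc and Ctrl was 0.04 ± 0.33 (SE) on the log2 scale, with a 95% interval from -0.66 to 0.74. Col1a2, the alpha-2 chain of the same fibre, gave 0.07 ± 0.34 with an interval from -0.64 to 0.79. Col3a1, the type III chain of reticular fibres, was 6.69, 2.64, 7.01, 1.86 and 3.04 FPKM in Ctrl, 2.24, 3.98, 1.94, 6.81 and 6.34 FPKM in Alc, and 2.31, 14.3, 3.21, 3.78 and 1.66 FPKM in Alc UA. The ranges of the 3 groups overlapped, and its difference between Alc and Ctrl was 0.01 ± 0.43 with an interval from -0.91 to 0.94. Col5a2, a type V chain that nucleates fibrils, stayed between 0.24 and 1.25 FPKM and was not tested.

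The type I collagen chains were also compared with each other. Col1a1 was below Col1a2 in FPKM in all 15 libraries, with a ratio from 0.267 to 0.705 and a median of 0.509. Col6a1, Col6a2 and Col6a3 encode the chains of type VI collagen, which forms beaded microfibrils, and the ratio of Col6a1 to Col6a2 lay between 1.53 and 3.14. None of the 3 passed a test, and Col6a1 was 3.35, 2.65, 8.11, 2.53 and 2.35 FPKM in Ctrl, 2.99, 3.09, 3.06, 4.67 and 5.29 FPKM in Alc, and 2.97, 5.15, 1.59, 3.07 and 1.76 FPKM in Alc UA. Ctrl 3 alone among the Ctrl libraries exceeded 3.35 FPKM, and the group means of 3.80 ± 2.44 (SD, n = 5) in Ctrl and 3.82 ± 1.08 (SD, n = 5) in Alc differed by far less than these spreads. Col14a1, a collagen that sits on the surface of fibrils, was 20.9 FPKM in Ctrl 3 and between 5.48 and 7.38 FPKM in the other Ctrl libraries. It ranged from 4.81 to 11.3 FPKM in Alc and from 5.05 to 14.6 FPKM in Alc UA.

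**Figure D3:**
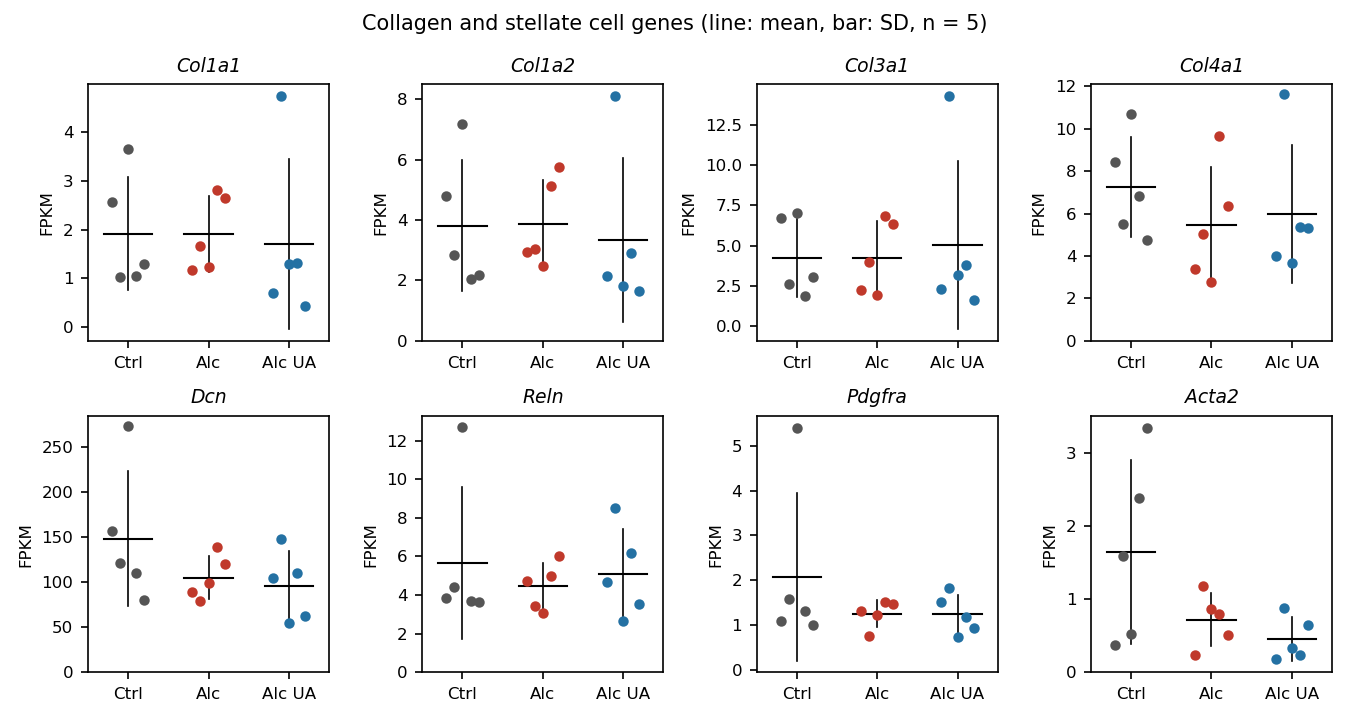
FPKM of Col1a1, Col1a2, Col3a1, Col4a1, Dcn, Reln, Pdgfra and Acta2 in each library (points) with group means and SD, n = 5 mice per group. The points of the 3 groups overlap in every panel, and single libraries (Ctrl 3 for Dcn, Reln and Pdgfra, Alc UA 2 for Col1a1, Col1a2 and Col3a1) lie above the rest of their groups.

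Type IV collagen is the network-forming collagen of basement membranes, and its alpha-1 and alpha-2 chains come from the neighbouring genes Col4a1 and Col4a2, which are transcribed in opposite directions from a shared promoter. Both windows of 250 bases before to 50 bases after the annotated start are shown because the values of this gene pair follow. They are RefSeq sequences of GRCm38.p6, the Col4a1 window at chr8:11312777-11313076 on the minus strand and the Col4a2 window at chr8:11312555-11312854 on the plus strand, each written 5′ to 3′ on its own strand. The capitals mark the 78 bases, chr8:11312777-11312854, that both windows hold, read on opposite strands. The annotated starts lie 21 bases apart.
Col4a1: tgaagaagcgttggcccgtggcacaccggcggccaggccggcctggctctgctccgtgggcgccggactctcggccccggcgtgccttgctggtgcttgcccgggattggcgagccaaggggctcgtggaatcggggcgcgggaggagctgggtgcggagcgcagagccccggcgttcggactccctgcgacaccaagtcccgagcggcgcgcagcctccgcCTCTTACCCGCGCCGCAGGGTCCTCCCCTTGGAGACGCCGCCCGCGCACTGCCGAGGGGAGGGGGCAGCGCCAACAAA
Col4a2: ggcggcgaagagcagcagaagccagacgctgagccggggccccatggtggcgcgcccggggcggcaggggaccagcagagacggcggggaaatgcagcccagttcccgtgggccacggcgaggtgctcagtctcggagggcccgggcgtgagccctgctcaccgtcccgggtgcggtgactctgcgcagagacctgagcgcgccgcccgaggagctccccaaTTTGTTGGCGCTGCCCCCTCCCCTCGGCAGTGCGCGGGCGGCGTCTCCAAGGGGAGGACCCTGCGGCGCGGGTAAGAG

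The GC box, searched as GGGCGG on both strands, was found 1 time in the Col4a1 window and 3 times in the Col4a2 window, and the CCAAT box, searched as CCAAT on both strands, 1 time in each. Of all 32851 windows of this length in the same RefSeq table, 35.7% held a GC box and 37.4% a CCAAT box. Among the 36 members 24 had an entry, with 27 windows in all, of which 16 held a GC box and 10 a CCAAT box. Neither Col4 window held a TATA box (TATAAA, in 13.6% of all windows) or the E-box CACGTG (in 7.15%). A match of letters is a description of the window, not evidence that a factor binds there.

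Col4a1 was 8.43, 5.52, 10.7, 6.84 and 4.78 FPKM in Ctrl, 3.38, 5.04, 2.78, 9.67 and 6.35 FPKM in Alc, and 3.99, 11.6, 3.65, 5.37 and 5.34 FPKM in Alc UA. Col4a2 was 3.62, 2.7, 4.85, 3.09 and 2.13 FPKM in Ctrl, 1.7, 3.1, 1.89, 3.71 and 3.46 FPKM in Alc, and 2.73, 4.55, 2.44, 3.12 and 4.46 FPKM in Alc UA. Both were highest in Ctrl 3 within Ctrl, in Alc 4 within Alc and in Alc UA 2 within Alc UA, and the groups overlapped. Col4a1 exceeded Col4a2 in 15 of 15 libraries, with a ratio of 2.21 ± 0.103 (SD, n = 5) in Ctrl, 1.91 ± 0.439 in Alc and 1.69 ± 0.521 in Alc UA. Neither gene passed in any comparison: for Alc against Ctrl, Col4a1 gave -0.41 ± 0.30 (limma adjusted p = 0.30) and Col4a2 gave -0.19 ± 0.20 (limma adjusted p = 0.49). Of the laminin chains, Lamb1 (beta-1) was 6.12 FPKM in Ctrl 3 and between 1.02 and 3.06 FPKM in every other library, and Lamc1 (gamma-1) was 4.42 FPKM in Ctrl 3 and between 1.71 and 3.28 FPKM elsewhere.

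Col18a1, the basement membrane collagen that carries endostatin at its end, was the one collagen among the members to pass a test. It was 121, 124, 148, 108 and 164 FPKM in Ctrl, 183, 182, 163, 163 and 207 FPKM in Alc, and 156, 167, 165, 162 and 167 FPKM in Alc UA. Ctrl 5 lay above the lowest Alc libraries, Alc 3 and Alc 4, and the other 4 Ctrl libraries lay below every Alc library. Col18a1 rose by 0.44 ± 0.11 on the log2 scale in Alc against Ctrl (limma adjusted p = 0.0074, from 133 ± 22.6 to 179 ± 18.3 FPKM, SD, n = 5), and all 27 alternative settings gave a call. In Alc UA against Ctrl it rose by 0.31 ± 0.11 (limma adjusted p = 0.032, 163 ± 4.65 FPKM in Alc UA), a call that ended without any 1 of Ctrl 1, Ctrl 2, Ctrl 4, Alc UA 2, Alc UA 3 or Alc UA 5 (limma adjusted p between 0.051 and 0.085) and with these 2 groups fitted alone (0.054). RefSeq annotates more than one start for Col18a1, both on the minus strand, and which of them the reads came from cannot be read from one value per gene. The windows are shown with GC and CCAAT boxes in capitals. The window at chr10:77113656-77113955 holds none of the 4 motifs, and the window at chr10:77166481-77166780 holds 3 GC boxes and 1 CCAAT box.
Col18a1 first window: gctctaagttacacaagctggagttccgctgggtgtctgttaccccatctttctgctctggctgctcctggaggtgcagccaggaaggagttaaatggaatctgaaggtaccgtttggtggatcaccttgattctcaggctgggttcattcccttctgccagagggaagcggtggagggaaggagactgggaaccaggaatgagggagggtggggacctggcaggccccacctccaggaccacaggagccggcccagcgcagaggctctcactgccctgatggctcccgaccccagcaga
Col18a1 second window: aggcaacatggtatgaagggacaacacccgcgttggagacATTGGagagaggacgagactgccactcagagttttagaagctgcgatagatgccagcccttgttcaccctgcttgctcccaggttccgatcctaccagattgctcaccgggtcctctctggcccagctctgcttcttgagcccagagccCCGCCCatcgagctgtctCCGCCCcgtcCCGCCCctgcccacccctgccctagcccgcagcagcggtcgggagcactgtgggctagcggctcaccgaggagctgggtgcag

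Among the glycoproteins and proteoglycans, Fn1 encodes fibronectin, a glycoprotein of plasma and matrix to which cells attach through integrins. It was 87.35, 103, 129, 97.9 and 153 FPKM in Ctrl, 186, 186, 145, 149 and 224 FPKM in Alc, and 172, 185, 142, 201 and 228 FPKM in Alc UA. Ctrl 5 lay inside the range of both alcohol-diet groups and the other 4 Ctrl libraries lay below every one of them. Fn1 rose by 0.65 ± 0.17 in Alc (limma adjusted p = 0.0086) and by 0.71 ± 0.17 in Alc UA (limma adjusted p = 0.0036), each relative to Ctrl, that is from 114 ± 26.5 to 178 ± 32.1 and 186 ± 32.1 FPKM (SD, n = 5). Both calls held in 27 of 27 alternatives. Fn1 and Col18a1 were the members at the highest level together with Dcn and Ecm1, each at 38.2 FPKM or more in every library.

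Sparc, a collagen-binding glycoprotein that promotes fibril assembly, was 43.2, 28.9, 41.9, 33.8 and 19.1 FPKM in Ctrl, 13.99, 23.8, 13.4, 25.7 and 24.6 FPKM in Alc, and 13.7, 30.1, 16.9, 17.6 and 13.4 FPKM in Alc UA. Ctrl 5 lay within the range of both alcohol-diet groups, and Ctrl 2 lay below Alc UA 2 and so within the Alc UA range. Sparc fell by 0.84 ± 0.26 on the log2 scale in Alc UA against Ctrl (limma adjusted p = 0.016), and this call held in all 27 alternatives. In Alc against Ctrl it fell by 0.69 ± 0.26 with a limma adjusted p of 0.049. That call held in only 9 of 27 alternatives: it ended when any 1 of 12 libraries was left out (limma adjusted p between 0.051 and 0.12) and stayed without Ctrl 5, Alc 4 or Alc UA 2.

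Ecm1, a secreted glycoprotein that binds matrix and is abundant in healthy liver, was 104, 77.9, 159, 76.9 and 57.7 FPKM in Ctrl, 63.7, 46.4, 62.4, 77.0 and 79.6 FPKM in Alc, and 56.6, 69.7, 40.9, 68.9 and 38.2 FPKM in Alc UA. All Alc UA libraries lay below 4 of the 5 Ctrl libraries, Ctrl 5 being the exception. Ecm1 fell by 0.74 ± 0.24 in Alc UA against Ctrl (limma adjusted p = 0.024). This call ended when leaving out Ctrl 1, Ctrl 3, Alc UA 3 or Alc UA 5 (limma adjusted p between 0.053 and 0.066) and with libraries scaled to the same sum (0.059). For Alc against Ctrl the difference was -0.46 ± 0.24 (limma adjusted p = 0.15), and it passed without Ctrl 5 (0.049).

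Dcn was 157, 122, 274, 110 and 80.4 FPKM in Ctrl, 89.3, 79.2, 99.0, 139 and 119.9 FPKM in Alc, and 105, 148, 54.6, 110 and 62.1 FPKM in Alc UA. The groups overlapped, and its difference between Alc UA and Ctrl was -0.59 ± 0.31 (limma adjusted p = 0.13), which passed without Ctrl 5 (0.044). Of its relatives among the small leucine-rich proteoglycans, lumican (Lum), which sets fibril spacing, gave -0.52 ± 0.33 (limma adjusted p = 0.22) and biglycan (Bgn), which binds collagen and growth factors, -0.59 ± 0.29 (limma adjusted p = 0.11) in that comparison. Both passed without Alc UA 2, at limma adjusted p = 0.030 for Lum and 0.032 for Bgn. Bgn was 113 FPKM in Ctrl 3 and between 24.7 and 65.2 FPKM in all other libraries.

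No contractile gene passed a test. Acta2 was 0.37, 1.59, 0.52, 2.39 and 3.35 FPKM in Ctrl, 0.23, 1.18, 0.86, 0.8 and 0.51 FPKM in Alc, and 0.18, 0.88, 0.33, 0.23 and 0.64 FPKM in Alc UA. It missed the level filter, 2 Ctrl libraries lay within the range of the alcohol-diet groups, and with no filter the limma adjusted p was 0.22 for Alc and 0.062 for Alc UA against Ctrl. Unlike the stellate cell markers, it was not raised in Ctrl 3. Myh11, the smooth muscle myosin that defines vessel wall muscle and is not one of the 36, was also highest in Ctrl 4 and Ctrl 5, at 1.19 and 1.2 FPKM, and between 0.17 and 0.71 FPKM in the other libraries. The summed level of 12 vascular smooth muscle and portal fibroblast markers did not follow this order. Within Ctrl that sum was highest in Ctrl 3, at 18.18 FPKM, and lowest in Ctrl 5, at 8.8 FPKM. In Ctrl 4 it was 11.13 FPKM. The share of vessel wall in the Acta2 values was not tested. Tagln, an actin-bundling protein of smooth muscle, was 7.7 FPKM in Alc UA 2, 4.2 FPKM in Alc 4 and between 1.42 and 3.64 FPKM elsewhere. Desmin (Des), the intermediate filament by which stellate cells are recognised in rodents, was 3.61 FPKM in Ctrl 3 and between 0.87 and 1.92 FPKM in the other 14 libraries.

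The receptors and secreted products of stellate cells all lacked a call. Pdgfrb, the PDGF receptor through which stellate cells are driven to divide, was 1.92, 2, 5.59, 1.51 and 1.59 FPKM in Ctrl, 1.72, 1.59, 1.77, 2.79 and 2.28 FPKM in Alc, and 1.7, 3.13, 1.43, 1.64 and 1.12 FPKM in Alc UA. Apart from Ctrl 3 the groups covered similar ranges, and the difference between Alc and Ctrl was -0.13 ± 0.24 with a 95% interval from -0.63 to 0.38. Pdgfra, its mesenchymal relative, was 5.41 FPKM in Ctrl 3 and between 0.73 and 1.83 FPKM in every other library. Reelin (Reln), a secreted glycoprotein that in liver marks stellate cells, was 3.83, 4.41, 12.7, 3.7 and 3.65 FPKM in Ctrl, 4.73, 3.46, 3.07, 4.99 and 6.04 FPKM in Alc, and 4.7, 8.51, 2.64, 6.2 and 3.54 FPKM in Alc UA. Ctrl 3 stood alone at the top, and the group differences were -0.17 ± 0.30 for Alc and -0.06 ± 0.30 for Alc UA against Ctrl. Colec11 gave -0.21 ± 0.25 and -0.46 ± 0.25, and Hgf, the hepatocyte growth factor that stellate cells supply to hepatocytes, -0.15 ± 0.28 and 0.01 ± 0.28, in the same order. None of these 5 genes passed in any of the alternatives.

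Among the proteases and inhibitors, Mmp14 gave the clearest separation of any member. It encodes MT1-MMP, a membrane-bound collagenase that also activates the secreted gelatinase Mmp2. Its RefSeq window on GRCm38.p6, chr14:54431348-54431647 on the plus strand, is shown for that reason, with GC and CCAAT boxes in capitals. It holds 2 GC boxes and 2 CCAAT boxes, the CCAAT boxes on the opposite strand, and a CCAAT box and a GC box share 1 base. Like the Col18a1 windows, it was chosen after the values were seen.
Mmp14: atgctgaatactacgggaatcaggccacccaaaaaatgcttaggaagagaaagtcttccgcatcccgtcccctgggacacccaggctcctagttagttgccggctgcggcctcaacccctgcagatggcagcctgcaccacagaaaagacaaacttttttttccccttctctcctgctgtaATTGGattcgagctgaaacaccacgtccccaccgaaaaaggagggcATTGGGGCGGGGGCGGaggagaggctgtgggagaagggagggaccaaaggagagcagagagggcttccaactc

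Mmp14 was 21.3, 17.3, 25.4, 21.65 and 15.5 FPKM in Ctrl, 14.6, 13.6, 13.9, 13.4 and 11.1 FPKM in Alc, and 11.7, 11.25, 11.6, 12.5 and 10.3 FPKM in Alc UA. Every Ctrl library lay above every library of both alcohol-diet groups. Mmp14 fell by 0.55 ± 0.11 on the log2 scale in Alc (limma adjusted p = 0.0026) and by 0.75 ± 0.11 in Alc UA (limma adjusted p = 2.4e-04), relative to Ctrl, from 20.2 ± 3.88 to 13.3 ± 1.32 and 11.5 ± 0.772 FPKM (SD, n = 5). Both calls held in 27 of 27 alternatives, among them those without Ctrl 3. The difference between Alc UA and Alc was -0.20 ± 0.11 with a 95% interval from -0.44 to 0.05 (limma adjusted p = 0.82). Mmp2, which degrades denatured and type IV collagen, was 3.52 FPKM in Ctrl 3 and between 0.49 and 1.96 FPKM elsewhere, with a difference of 0.0047 ± 0.25 between Alc and Ctrl.

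Timp3, the inhibitor that is bound to matrix and blocks MT1-MMP and several sheddases, was 11.7, 11.9, 15.5, 16.6 and 7.2 FPKM in Ctrl, 4.7, 10.1, 6.04, 14.8 and 10.5 FPKM in Alc, and 5.62, 8.74, 2.91, 5.4 and 5.37 FPKM in Alc UA. Ctrl 5 and Alc UA 2 were the only libraries in which the Ctrl and Alc UA groups met. Timp3 fell by 1.05 ± 0.28 on the log2 scale in Alc UA against Ctrl (limma adjusted p = 0.0083, from 12.6 ± 3.7 to 5.61 ± 2.07 FPKM, SD, n = 5), and the call held in 27 of 27 alternatives. The Alc libraries spanned both groups at 9.23 ± 4.01 FPKM: the difference was -0.45 ± 0.28 between Alc and Ctrl (limma adjusted p = 0.22) and -0.60 ± 0.28 between Alc UA and Alc, with a 95% interval from -1.19 to 0.0046 and a limma adjusted p of 0.82. A different response to alcohol with and without UA was thus not shown for Timp3. Timp2, an inhibitor that also takes part in Mmp2 activation, was 13.96 FPKM in Ctrl 3 and between 2.89 and 7.53 FPKM elsewhere. Timp1, an inhibitor induced in fibrosis, was between 0.12 and 0.57 FPKM in 12 libraries and reached 1.15 FPKM in Ctrl 1, 1.84 FPKM in Alc 4 and 1.88 FPKM in Alc UA 2, and was not tested.

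**Figure D4:**
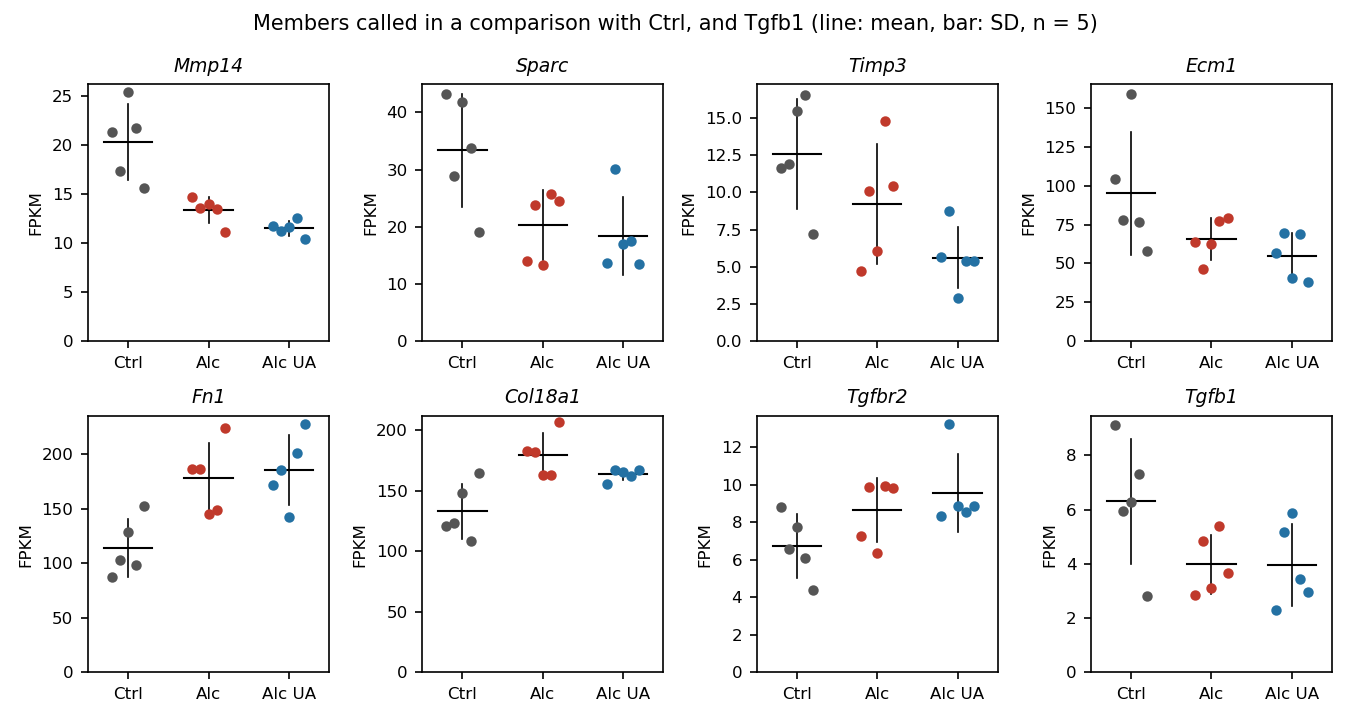
FPKM of Mmp14, Sparc, Timp3, Ecm1, Fn1, Col18a1, Tgfbr2 and Tgfb1 in each library (points) with group means and SD, n = 5 mice per group. Mmp14 is the panel in which every Ctrl point lies above all points of both alcohol-diet groups, and in the panels of Fn1 and Col18a1 the Ctrl points lie lowest apart from Ctrl 5.

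Of the TGF-beta genes, the ligand Tgfb1 was 9.11, 5.94, 6.29, 7.33 and 2.83 FPKM in Ctrl, 2.86, 4.86, 3.11, 5.39 and 3.68 FPKM in Alc, and 2.3, 5.18, 5.87, 3.44 and 2.98 FPKM in Alc UA. Ctrl 5 lay among the lowest values, and the other 4 Ctrl libraries above all libraries of both other groups. The differences from Ctrl were -0.51 ± 0.25 in Alc (limma adjusted p = 0.12) and -0.54 ± 0.25 in Alc UA (limma adjusted p = 0.087). Without Ctrl 5 both passed (0.014 and 0.0087), with library weights both passed (0.034 and 0.022), and without Alc UA 3 the second passed (0.041). Tgfbr2, the type II receptor that binds the ligand and phosphorylates the type I receptor, was 8.83, 6.58, 7.76, 6.1 and 4.39 FPKM in Ctrl, 7.28, 9.87, 6.38, 9.95 and 9.8 FPKM in Alc, and 8.32, 13.2, 8.84, 8.53 and 8.86 FPKM in Alc UA. Ctrl 1 lay inside the Alc UA range, and the Ctrl and Alc ranges overlapped. Tgfbr2 rose by 0.46 ± 0.17 in Alc UA against Ctrl (limma adjusted p = 0.037), a call that held in 17 of 27 alternatives and ended without Ctrl 2, Ctrl 4, Ctrl 5, Alc UA 2 or Alc UA 5 (limma adjusted p between 0.054 and 0.099). In Alc against Ctrl it gave 0.33 ± 0.17 (limma adjusted p = 0.14), and passed with quantile normalization (0.019), median-of-ratios size factors (0.021) and library weights (0.011).

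The crosslinking oxidases stayed low. Lox, the lysyl oxidase that crosslinks collagen and elastin, lay between 0 and 0.73 FPKM, and its relative Loxl1 between 0.27 and 1.73 FPKM with the highest value in Ctrl 3, and neither was tested. Together with Col5a2, Acta2 and Timp1 these are the 5 members that missed the filter.

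Between Alc UA and Alc, the comparison that addresses the addition of UA to the alcohol diet, no member reached even an unadjusted p below 0.05, and the limma adjusted p lay between 0.82 and 0.9997. At an unadjusted p below 0.05, 664 of 10959 genes stood in the table. No member was called in any of the 26 alternatives to this comparison. The median member difference was -0.13 on the log2 scale beside -0.051 for all tested genes. It was -0.28 without Alc UA 2 (all tested genes -0.066). Other libraries moved it nearer to 0 when left out, and the median of all tested genes moved too. It was -0.051 without Alc 4 (all tested genes -0.024) and -0.083 without Alc 5 (all tested genes -0.057). Without Alc UA 1 it was -0.084 (all tested genes -0.027), without Alc UA 3 -0.094 (-0.067) and without Alc UA 5 -0.044 (-0.027). For the type I collagen gene Col1a1 the 95% interval of the difference was -0.95 to 0.45, for Fn1 -0.29 to 0.41 and for Col18a1 -0.36 to 0.10, so the precision differed by gene.

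Beyond the 36, other genes of the same pathways were read from the same fit, where of all tested genes 22.8% fell and 10.6% rose in Alc, and 32.1% fell and 10.5% rose in Alc UA, relative to Ctrl. Of 21 tested genes in the TGF-beta pathway, 8 fell (38.1%) and 1 rose in Alc against Ctrl, and 11 fell (52.4%) and 0 rose in Alc UA against Ctrl. With quantile normalization these counts were 7 and 1, and 7 and 3, and without Alc 1 the first was 5. The 1 rise was lost without Alc 5, and without Ctrl 3 or without Alc UA 3 there were 2 rises in Alc UA. Among those that fell was endoglin (Eng), a TGF-beta co-receptor of endothelium, by 1.07 ± 0.22 on the log2 scale in Alc and by 1.44 ± 0.22 in Alc UA (limma adjusted p = 0.0026 and 2.5e-04). The inhibitory Smad6 fell by 0.68 ± 0.18 and by 0.94 ± 0.18 (limma adjusted p = 0.012 and 0.0012). Ltbp4 fell by 0.83 ± 0.23 and by 1.24 ± 0.23 (limma adjusted p = 0.013 and 8.4e-04). Fst fell by 1.43 ± 0.31 in Alc (limma adjusted p = 0.0036). In Alc UA, Fst gave -0.80 ± 0.31 and just missed a call, which it gained without Ctrl 1, Ctrl 3 or Alc UA 2. Of 11 tested genes known as targets of TGF-beta or of the related BMPs, 7 fell in Alc (63.6%, and 4 genes without Alc 1) and 6 in Alc UA (54.5%), and 0 rose (1 in Alc UA without Ctrl 5 or without Alc UA 3). Smad7 and Skil, inhibitors of the pathway that it also induces, stand in both lists and are counted among the falls of both. The Smad7 call in Alc ended without Alc 1 (limma adjusted p = 0.057) or Ctrl 3 (0.054). The Skil call in Alc UA ended with quantile normalization (0.13), median-of-ratios size factors (0.063) and libraries scaled to the same sum (0.062). It also ended without Alc UA 1 (0.060) or Alc UA 5 (0.056). Among the targets that fell were the transcriptional inhibitors Id2 and Id3 and the fibronectin receptor chain Itga5, which fell by 1.23 ± 0.16 in Alc UA (limma adjusted p = 7.1e-05). Id3 fell by 2.12 ± 0.27 in Alc and by 1.98 ± 0.27 in Alc UA (limma adjusted p = 1.2e-04 in both). Id3 was 106, 110, 96.7, 140.5 and 72.5 FPKM in Ctrl, 11.1, 27.4, 30.6, 26.8 and 24.4 FPKM in Alc, and 13.8, 30.8, 38.5, 27.6 and 22.8 FPKM in Alc UA, with no overlap between Ctrl and either other group.

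Of 12 other tested collagen, laminin and basement membrane genes, 7 fell in Alc (58.3%) and 9 in Alc UA (75%) relative to Ctrl, and 0 rose. The largest of these falls were those of Col13a1, a transmembrane collagen, by 1.51 ± 0.19 and by 1.68 ± 0.19, and Col5a3, a type V chain, by 1.44 ± 0.22 and by 1.94 ± 0.22 (limma adjusted p at or below 3.6e-04 in all 4). The basement membrane proteins Nid2 and Hspg2 (nidogen-2 and perlecan) fell as well, by 0.73 ± 0.12 and by 0.66 ± 0.17 in Alc. Of 11 other glycoproteins and elastic fibre genes 2 fell in each comparison, elastin (Eln) and the vascular protein Igfbp7, a share of 18.2% that lies below the 22.8% and 32.1% of all tested genes. Igfbp7 fell by 0.93 ± 0.28 in Alc, a call that ended without Alc 1, Ctrl 1 or Ctrl 3 (limma adjusted p between 0.052 and 0.058). Without Ctrl 5 the count that fell in Alc UA was 5, and without Ctrl 3 there was 1 rise in Alc.

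Of 14 tested genes that modify or crosslink collagen, 3 rose and 3 fell in Alc (21.4% each, the falls near the 22.8% of all tested genes), and 3 rose and 7 fell (50%) in Alc UA, a count of falls that was 4 with quantile normalization and 3 with libraries scaled to the same sum. Without Ctrl 5 the count that fell in Alc was 7, and the count that fell in Alc UA was 2 without Ctrl 1, Ctrl 3 or Alc UA 1 and 3 without Alc UA 5. The prolyl hydroxylases P4ha2 and P3h1 fell by 0.70 ± 0.12 and by 0.44 ± 0.08 in Alc, and the collagen galactosyltransferase Colgalt1 rose by 0.46 ± 0.09 (limma adjusted p between 9.7e-04 and 0.0021). Plod1 rose by 0.33 ± 0.09 in Alc (limma adjusted p = 0.010) and by 0.34 ± 0.09 in Alc UA (0.0054). Of 11 other proteases and inhibitors 2 rose (18.2%, against 10.6% and 10.5% of all tested genes) and 0 fell in each comparison, Mmp19 by 0.86 ± 0.14 in Alc (limma adjusted p = 6.3e-04) and Mmp15 by 0.49 ± 0.18 (0.042), the latter a call lost in 11 of 27 alternatives, among them those without Ctrl 2, 3 or 4, Alc 2, 3, 4 or 5, or Alc UA 4 or 5. The rise of Mmp15 in Alc UA was lost without Ctrl 2, Ctrl 4, Alc UA 2, Alc UA 4 or Alc UA 5, and 1 gene fell in Alc UA without Ctrl 5. Of 3 tested PDGF ligands 1 fell in Alc and 2 in Alc UA: Pdgfd by 0.59 ± 0.20 (limma adjusted p = 0.033) and by 0.75 ± 0.20 (0.0076), and Pdgfc by 0.52 ± 0.18 (0.030). These counts were 0 to 3 in Alc and 1 to 3 in Alc UA over the alternatives. In Alc the count was 0 without Ctrl 1, Ctrl 3, Ctrl 4, Alc 1 or Alc 5, was 2 without Ctrl 2, Alc UA 1 or Alc UA 2, and was 3 without Ctrl 5. In Alc UA it was 1 without Ctrl 1, Ctrl 3, Ctrl 4, Alc UA 1, Alc UA 3 or Alc UA 5.

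Markers of other liver cells moved beside these genes. All 16 sinusoidal endothelial markers were tested, and 15 fell in Alc and 16 in Alc UA relative to Ctrl, with medians of -1.28 and -1.65 on the log2 scale and the same counts under each of 3 other scalings. Their summed level was 190 to 543 FPKM in Ctrl, 85.4 to 191 FPKM in Alc and 91.8 to 117 FPKM in Alc UA. Ctrl 5, in which Mmp14, Sparc, Timp3, Ecm1 and Tgfb1 were the lowest of the Ctrl libraries, was also the lowest Ctrl library for this sum. That position was not particular to endothelial markers. Ctrl 5 was likewise the lowest Ctrl library for the Kupffer cell sum (67.2 FPKM) and the PDGF ligand sum (5.54 FPKM). It was the highest for the sum of genes that modify or crosslink collagen (475 FPKM). The median deviation of all tested genes from their means was also lowest in Ctrl 5 within Ctrl, at -0.075 on the log2 scale. The part of endothelial cells in the fall of Mmp14, Sparc, Timp3 and Ecm1 was not tested. Of 15 other tested stellate cell markers, 13 did not pass in each comparison. Named after their values were seen, Steap4 rose by 0.99 ± 0.27 (limma adjusted p = 0.012) and Rgs5 fell by 0.64 ± 0.23 (0.047) in Alc, the latter with 0 genes falling under each of the 3 other scalings. In Alc UA, Steap4 rose by 1.07 ± 0.27 (0.0053) and Angptl6 fell by 0.58 ± 0.18 (0.018), where 0 fell with libraries scaled to the same sum.

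**Figure D5:**
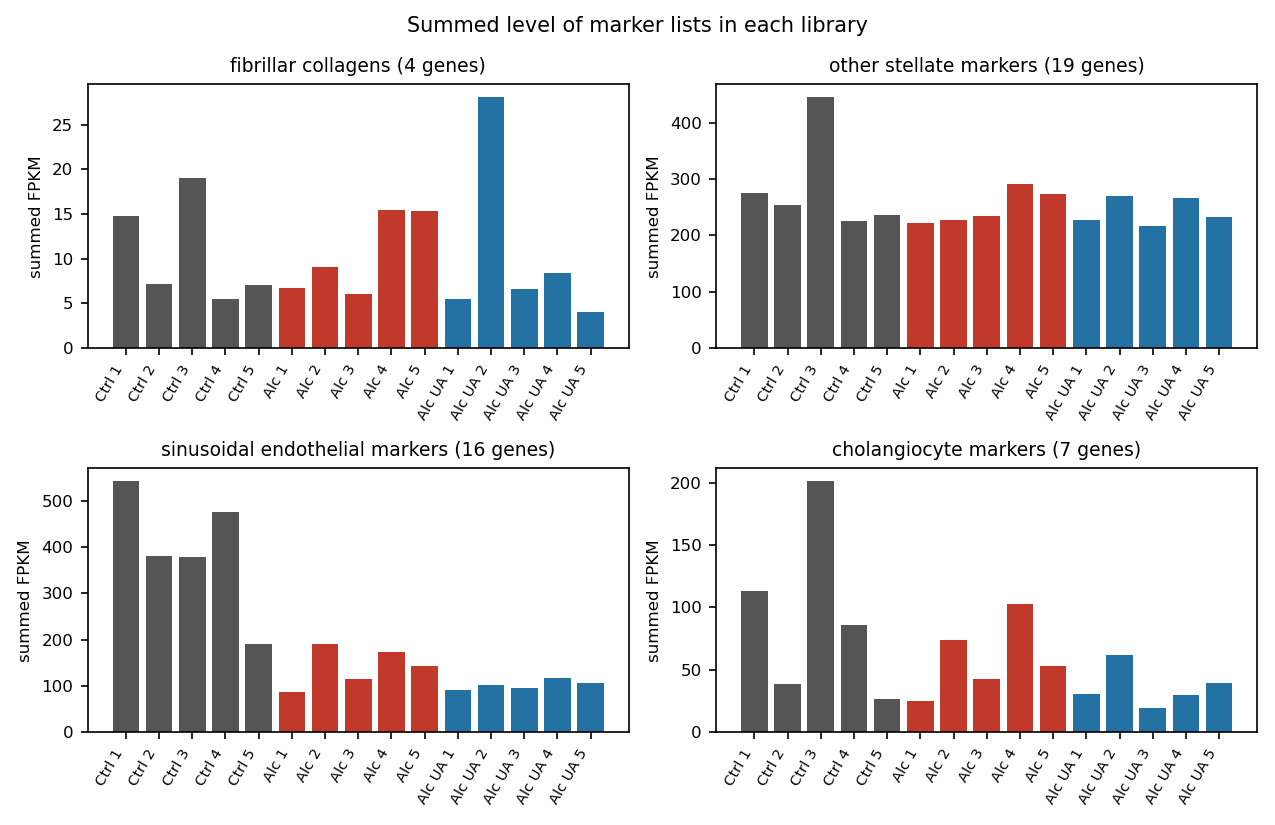
Summed FPKM per library (bars, axes from 0) of the fibrillar collagens among the members, of the 19 further stellate cell markers, of 16 sinusoidal endothelial markers and of 7 cholangiocyte markers. Spp1 makes up most of the cholangiocyte sum in every library. The endothelial sum is 189.9 FPKM or more in all Ctrl bars. The lowest of these, Ctrl 5, lies below the Alc 2 bar at 191 FPKM. The fibrillar collagen sum is highest in Alc UA 2 (28.1 FPKM) and the other stellate cell sum in Ctrl 3 (446 FPKM).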

How the data were processed

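Liver total RNA of 15 WT mice in 3 diet groups of 5 was sequenced on an MGISEQ instrument, per the labels' protocols. The values the authors deposited are FPKM, in 1 table with a gene symbol per row. The submitters' processing notes name RSEM 1.2.8, DESeq, StringTie, HISAT2 2.1.0 and Bowtie2 2.2.5 but give no roles. Neither a genome build, nor an annotation, nor a strand setting is stated in any source used here, so overlapping or near-identical genes could share reads. Columns were matched to mice by the letter and number in their names and the sample titles.

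FPKM values are not counts, so the depth of the libraries is unknown and no count model was used. Values were taken as log2(FPKM + 1), a scale that understates the change of low genes. Genes reaching 1 FPKM in 5 or more of 15 libraries were fitted over the 3 groups with limma 3.58.1 in R 4.3.3 (variance prior with a mean trend, 12 residual degrees of freedom), and p-values were adjusted by Benjamini-Hochberg over 10959 genes. This differential fit was tested on simulated data. The p-values set each group difference against the spread between the mice sampled within groups. No pair of libraries was identical (0 pairs). Plots used Python 3.11.15 and matplotlib 3.10.9.

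Described were all 36 members and, from each list of pathway genes, up to 4 genes with the smallest adjusted p below 0.05 in each comparison, beside defining cell type markers. The members and lists were chosen with earlier results of these data known. Alternatives changed the pseudocount, the filter, the scaling, library weights, the variance prior, the replicate block, the groups fitted and the libraries left out. Promoter windows are from RefSeq (GRCm38.p6) by symbol, and their coordinates belong to that build. Protein sequences were not used here.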

Additional observations from a re-analysis of the deposited data

Results flagged for a closer look

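Each member was checked in each group of 5 libraries for a highest or lowest value set apart from the rest, which gave 108 checks. A sample was singled out when its gap to the nearest library exceeded 0.71 of the group's range (Dixon's 95% critical value for 5 samples). For normally distributed values chance marks about 1 in 20 groups, and 33 of 108 were marked, each for a highest value. The check used FPKM without a log, where high values lie further apart, and the share marked among all tested genes was not computed. Whether 33 is more than for other genes was therefore not tested. The genes share libraries, so these are not 33 independent events.

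Ctrl 3 was the library in 15 of them, each time as the highest Ctrl value: Col6a1 at 8.11 FPKM, Col6a2 at 4.55 FPKM, Col6a3 at 4.1 FPKM and Col14a1 at 20.88 FPKM among the collagens. The matrix proteins Bgn at 113.15 FPKM, Lamb1 at 6.12 FPKM and Lamc1 at 4.42 FPKM were in the same position in Ctrl 3. So were the stellate cell genes Des at 3.61 FPKM, Pdgfra at 5.41 FPKM, Pdgfrb at 5.59 FPKM, Reln at 12.72 FPKM, Colec11 at 67.08 FPKM and Hgf at 7.02 FPKM, and the inhibitor Timp2 at 13.96 FPKM with the protease Mmp2 at 3.52 FPKM.

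Alc UA 2 was the library in 13, each time as the highest of its group. Its collagen values were Col1a1 at 4.73 FPKM, Col1a2 at 8.11 FPKM, Col3a1 at 14.26 FPKM, Col4a1 at 11.64 FPKM, Col5a2 at 1 FPKM and Col6a3 at 3.01 FPKM. The others were Sparc at 30.14 FPKM, Lum at 13.11 FPKM, Tagln at 7.7 FPKM, Pdgfrb at 3.13 FPKM, Timp1 at 1.88 FPKM, Tgfbr2 at 13.22 FPKM and Loxl1 at 1 FPKM.

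In Alc 4, Tagln at 4.2 FPKM, Timp1 at 1.84 FPKM and Loxl1 at 0.78 FPKM stood above the other Alc libraries. Timp1 at 1.15 FPKM in Ctrl 1 and Lox at 0.73 FPKM in Alc UA 3 were each the highest of their group.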

How the results depend on the processing

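The number of members that fell in Alc against Ctrl, 2 in the analysis reported, was 1 with no filter, with libraries scaled to the same sum, with size factors from medians of ratios, with Alc and Ctrl fitted alone, and without Ctrl 3 and Alc UA 2 together, an alternative chosen after seeing the data. It ranged from 1 to 4 when single libraries were left out. In each case with 1, Mmp14 was the gene that stayed, and the 4 without Ctrl 5 were Ecm1, Mmp14, Sparc and Tgfb1. The number that rose in Alc UA against Ctrl, 3 in the analysis reported, was 1 (Fn1) with these groups fitted alone and ranged from 1 to 3 when single libraries were left out. The causes were not tested. No called fold change of a member or named gene reversed in any alternative. The number of all genes called in Alc against Ctrl was 3654, and 5870 with library weights. For Alc UA against Alc it was 1, and between 0 and 5 over the alternatives. The split of all calls was 1157 higher and 2497 lower in Alc against Ctrl, and 2049 and 2024 with quantile normalization. For Alc UA against Ctrl it was 1152 and 3521, and 2420 and 2430 with quantile normalization. Single Ctrl libraries moved the split as well. In Alc against Ctrl it was 1143 and 1817 without Ctrl 1, and 1133 and 3382 without Ctrl 5. In Alc UA against Ctrl it was 1129 and 2814 without Ctrl 1, and 1164 and 4210 without Ctrl 5.

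The replicate numbers do not mark a shared cage or day in the labels. Same-numbered libraries gave correlations of their deviations between -0.30 and 0.29, with 5 of 15 pairs over 0.1, and 3 of 15 libraries correlated best with their own number. With the replicate number as a block, 1 member fell in Alc against Ctrl and 2 rose, and in Alc UA against Ctrl 2 rose and 4 fell. Over all genes the block gave 1060 higher and 2494 lower calls for Alc against Ctrl, 0 for Alc UA against Alc, and 1051 higher and 3483 lower for Alc UA against Ctrl.

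Without counts the read depth behind low genes such as Acta2, Timp1 and Lox is unknown, and differences there were not detectable with these data. The 5 mice per group limit the precision, most for the members whose spread rests on Ctrl 3 or Alc UA 2.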

Other observations

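The balance of type III to type I collagen was also read as a ratio in each library. The ratio of Col3a1 to Col1a1 in FPKM lay between 2.49 and 3.77 in the 5 Alc UA libraries, between 1.58 and 2.43 in the 5 Alc libraries, and between 1.77 and 2.60 in the 5 Ctrl libraries. The Alc UA and Alc ranges did not meet, while the Alc UA and Ctrl ranges did. The ratio was one of 4 chain ratios examined and was singled out after its values were seen, so it was not tested, and in Alc UA 5 it rests on a Col1a1 level of 0.44 FPKM.

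Of the remaining marker lists, 5 of 6 tested erythroid genes fell and 1 rose in both comparisons with Ctrl (4 fell in Alc UA with median-of-ratios size factors), and their summed level was 1434 to 8802 FPKM in Ctrl, 579 to 992 FPKM in Alc and 350 to 1037 FPKM in Alc UA. None of 13 Kupffer cell and macrophage markers passed in Alc, where 1 rose under each of the 3 other scalings, and 1 (Cd5l, by 1.22 ± 0.46, limma adjusted p = 0.044) rose in Alc UA, where 5 did with quantile normalization. Of 4 tested cholangiocyte markers 1 fell in each (Sox9), and of 2 tested mesothelial markers 1 fell in each (Gpm6a). Of 9 hepatocyte markers 3 fell in each (Ttr, Apoa1 and Pck1), with 1 or 2 under other scalings. This share of 33.3% was near the 32.1% of all tested genes that fell in Alc UA and above the 22.8% that fell in Alc. Of 4 tested vascular smooth muscle and portal fibroblast markers 2 fell in each (Eln and Thy1), and Entpd2 rose in Alc.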
